A study of Mus musculus with 6 samples.

Results

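The replication-dependent histone genes are the clustered genes that encode the linker histone H1 and the core histones H2A, H2B, H3 and H4 made in S phase. They were taken as the protein-coding genes whose symbols begin with Hist1h, Hist2h, Hist3h or Hist4h in the GENCODE M21 annotation of the mouse genome build GRCm38. This rule gave 67 genes, and 65 of them had a row among the 47069 genes counted in each mouse. The other two, Hist1h2bh and Hist1h2bm, were not analysed here, and 3 histone pseudogenes were left out by the rule. By class there were 6 H1, 18 H2A, 16 H2B, 12 H3 and 13 H4 genes. By location, 52 lay in the Hist1 cluster on chromosome 13, 10 in the Hist2 cluster on chromosome 3, 2 in Hist3 on chromosome 11 and 1, Hist4h4, on chromosome 6.

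The study compared inguinal subcutaneous white adipose tissue (SC-WAT, the fat under the skin of the groin) of 3 Egr1+/+ and 3 Egr1-/- mice, all females aged 2 weeks on a background labelled C57BL/6, or C57BL/6 J in the methods of the study. EGR1 is a zinc-finger transcription factor, and the Egr1-/- mice were homozygous for a targeted allele in which LacZ sits in the 5′ UTR and a second lesion shifts the reading frame ahead of the zinc fingers, so that the gene was disrupted in every cell of the body. The Egr1+/+ mice were wild-type, and the 6 mice came from 4 litters, with 1 mouse of each genotype born in the same litter but not named as such. Each library came from the RNA of the fat pads of 1 mouse, and ribosomal RNA was removed from it without any selection for poly(A) tails, so that messages lacking a tail were kept.

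Histone proteins package new DNA, and the cell makes most of them while it copies its genome. The genes of this family are short, mostly lack introns, and give messages that end in a conserved stem-loop in place of a poly(A) tail. The stem-loop binding protein SLBP holds this structure and the U7 small nuclear RNP directs the cut just after it, while the transcription coactivator NPAT gathers at the gene clusters. When DNA synthesis stops these messages are rapidly degraded, which is why their level is often read beside that of other S phase genes.

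The stem-loop was looked for in every annotated transcript of the 65 genes as a run of 16 bases with a stem of 6 paired bases and a loop of 4. It was found in 44 genes and not in the annotated transcripts of the other 21. Several of those models end at the stop codon, but others are long, such as that of Hist2h2be with 2620 bases. The rule asked for a fully paired stem, so a stem-loop that departs from it would be missed. Absence from the model therefore does not show that the message lacks a stem-loop. The examples below are the sites of genes on which the results turn, with the stem-loop in capitals between its flanking bases, read 5′ to 3′ on the strand of the gene from the GENCODE M21 transcripts of GRCm38.
Hist1h1c: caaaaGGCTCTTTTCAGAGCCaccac
Hist2h2ac: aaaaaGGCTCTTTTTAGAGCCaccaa
Hist1h2bg: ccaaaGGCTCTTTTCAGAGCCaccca
Hist1h2bb: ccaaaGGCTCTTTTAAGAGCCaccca
Hist1h3f: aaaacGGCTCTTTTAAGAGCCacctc
Hist1h4d: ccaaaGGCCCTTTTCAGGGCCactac
Hist2h4: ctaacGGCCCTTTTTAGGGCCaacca
Hist1h4j: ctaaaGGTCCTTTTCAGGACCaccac

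In histone messages the stem-loop lies in the 3′ UTR, shortly after the stop codon. The sites shown sit at chr13:23739507-23739532 on the plus strand for Hist1h1c, chr3:96220413-96220438 on the minus strand for Hist2h2ac, chr13:23571838-23571863 on the plus strand for Hist1h2bg and chr13:23747198-23747223 on the plus strand for Hist1h2bb. The others sit at chr13:23544927-23544952 on the plus strand for Hist1h3f, chr13:23581945-23581970 on the plus strand for Hist1h4d, chr3:96262934-96262959 on the minus strand for Hist2h4 and chr13:21735432-21735457 on the plus strand for Hist1h4j. The first arm of the stem split the family by class. In all 12 H4 genes with a stem-loop it read GGCCCT (10 genes) or GGTCCT (2 genes), and in all 32 genes of the other classes it read GGCTCT. The most frequent form, the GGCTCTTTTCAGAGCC shown for Hist1h1c and Hist1h2bg, occurred in 24 genes, of which 3 encode H1, 10 H2A, 6 H2B and 5 H3. The commonest H4 form, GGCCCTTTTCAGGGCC, occurred in 7 genes. In 22 genes the annotated transcript ran more than 100 bases past the stem-loop, as in Hist1h4d with 770 and Hist1h1c with 840. A message cut after the stem-loop would end there, and where the messages of these mice ended was not tested.

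The promoters were alike too. RefSeq windows (GRCm38.p6) from 250 bases before to 50 bases after the start were matched to 60 of the 65 genes, with 61 entries. The CCAAT box, searched on both strands, was in 52 of the 61 windows (85.2%) against 37.4% of the 32851 windows of all genes. The TATA box, searched as TATAAA on the strand of the gene, was in 30 (49.2%) against 8.32%. The EGR1 motif, searched on both strands as GCGTGGGCG or GCGGGGGCG, was in 2 windows (3.28%), those of Hist2h3c1 and Hist2h3c2, against 3.47% of all windows. Hist2h3c1 had no count in any mouse and Hist2h3c2 was too low to be tested.

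Counts on genes summed to between 29661984 and 42357981 per mouse, of which 50.0% to 66.3% fell on mitochondrial genes and between 6335 and 11665 on the 65 histone genes. Levels are given as CPM (counts of a gene per 1000000 counts of the library) normalised by edgeR's TMM method, and 1 count was worth 0.0232 to 0.0333 CPM. Egr1 itself was counted 353, 241 and 711 times in Egr1+/+ replicates 1, 2 and 3 and 103, 84 and 57 times in Egr1-/- replicates 1, 2 and 3, so every Egr1-/- mouse lay below every Egr1+/+ mouse, as the labels have it. Each pad is a mixture of cells, and in such bulk samples fewer cells of a type and less RNA per cell cannot be told apart. Adipocyte markers were abundant in every mouse, with 8 genes summing to 3248 to 3925 CPM in Egr1+/+ mice and to 2752 to 3057 CPM in Egr1-/- mice. Of 17667 genes tested between the genotypes, 3 passed the Benjamini-Hochberg adjusted threshold of 0.05.

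No histone gene passed the adjusted threshold between the genotypes. Of the 65 genes 45 had counts enough to be tested, and 0 of them passed the adjusted threshold of edgeR's quasi-likelihood test, where 0.017% of all genes did. Without a filter on low counts the same test called 3 of 59, Hist1h2bb, Hist1h2bg and Hist1h2bn, all lower in Egr1-/- mice, and 1.44% of all genes. DESeq2 gave an adjusted p to 22 of them and called 0, against 2.89% of all genes with such a p. At an unadjusted p under 0.05 edgeR picked 3 of the 45, Hist2h2be and Hist1h3f higher and Hist1h2bg lower in Egr1-/- mice, where 10.7% of all genes were picked, 5.06% higher and 5.6% lower. DESeq2 also picked 3, where 10.1% of all genes were picked. These were Hist2h2be higher and Hist1h2bg and Hist1h2bb lower, without Hist1h3f. The split moved with the scaling, since edgeR picked 1 higher and 1 lower with RLE or upper-quartile factors (10.7% and 10.8% of all genes). With total counts alone it picked 0 higher and 4 lower (8.89% of all genes), and the median of all genes was then -0.15. The lowest adjusted p in the family was 0.377 by edgeR and 0.211 by DESeq2. In 2 genes, Hist2h2be and Hist1h3f, every Egr1-/- mouse was above every Egr1+/+ mouse, against 8.15% of all genes, and in 0 genes was every Egr1-/- mouse below, against 8.1%. The median log2 fold change of the 45 genes was -0.07, with 22 positive and 23 negative, beside 0.0011 over all tested genes, and single genes ranged from -0.95 to 0.91.

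**Figure D1:**
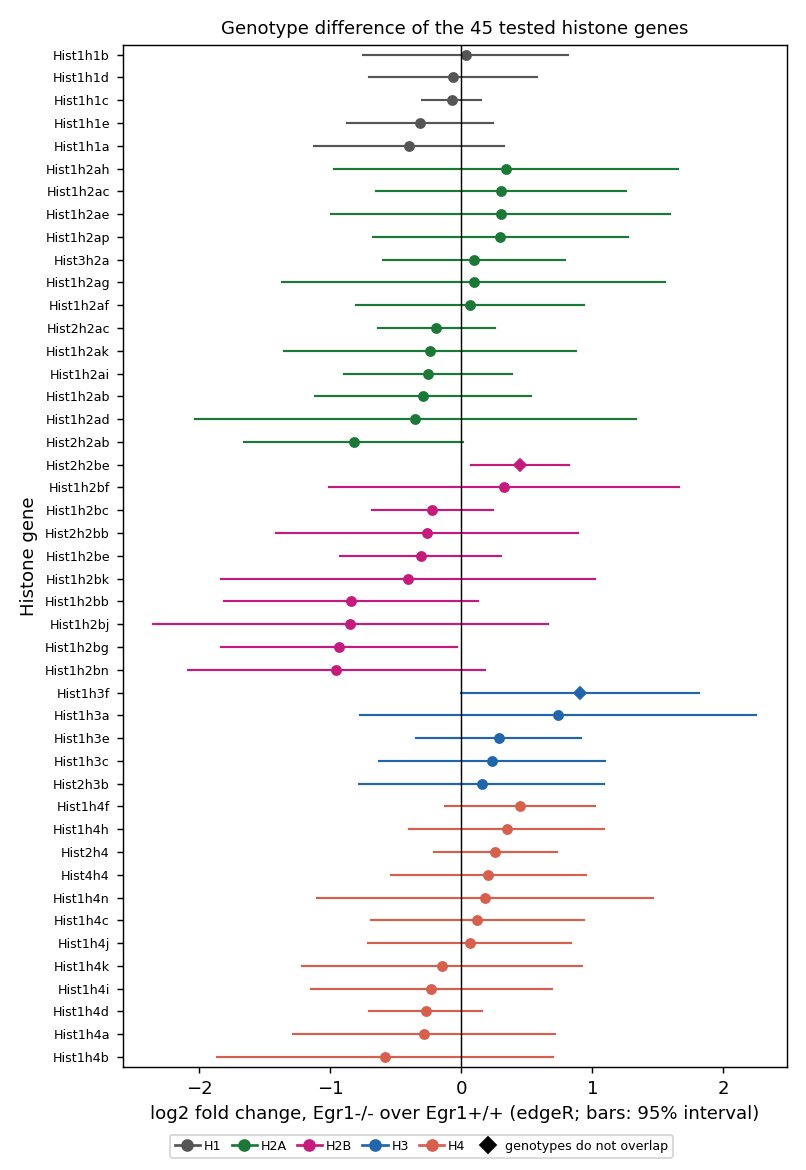
Log2 fold change of Egr1-/- over Egr1+/+ mice (x axis) for each of the 45 tested histone genes (y axis), grouped and coloured by class, as fitted by edgeR with 3 mice per genotype. Bars are 95% confidence intervals without adjustment for the number of genes, and diamonds mark Hist2h2be and Hist1h3f, the 2 genes whose genotypes did not overlap. The points lie between -0.95 and 0.91 and most bars cross 0.

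Levels within the family spanned a wide range, and a few genes held most of the counts. Summed over the 65 genes the level was 339.5, 210.9 and 260.3 CPM in Egr1+/+ replicates 1, 2 and 3 and 250.4, 213.2 and 240.8 CPM in Egr1-/- replicates 1, 2 and 3. The Egr1-/- mice all fell inside the range of the Egr1+/+ mice, and the mean was 270.2 ± 64.9 CPM (SD, n = 3) against 234.8 ± 19.3 CPM (SD, n = 3). Hist1h4d alone held 36.9% to 48.3% of this sum, and together with Hist1h1c, Hist2h2ac, Hist1h1e and Hist1h2bc it held 62.8% to 73.7%. At the other end, 20 genes were not tested, 6 of them with 0 counts in all mice and 4 more with at most 3 counts in any mouse. The 6 were Hist1h2aa, Hist1h2ao, Hist2h2aa1, Hist1h2bq, Hist1h2br and Hist2h3c1, and a count of 0 allows a level of up to 0.0696 to 0.0999 CPM depending on the mouse (3 counts, for counting error only).

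Shared sequence bears on which genes were counted. For each gene the share of its 50-base windows found in no other counted gene, on either strand, was taken from the annotated transcripts. Hist2h2bb shared windows only with Gm20628 and Gm42743, whose exons overlap it. Near-identical copies elsewhere and such overlaps thus both lower this share. This share was under 20% in 19 genes, of which 5 had 0 counts in all mice and 8 were tested. It was between 20% and 80% in 34 genes, of which 1 had 0 counts and 26 were tested, and over 80% in 12 genes, of which 0 had 0 counts and 11 were tested. Hist1h2ao, with 6.50% of its windows its own, was at 0, while Hist1h2ap, with which it shares most of its sequence, had 1.56 to 4.02 CPM. Reads that fit such pairs equally well cannot be assigned, and how the counting treated them is not given in the sources used here, so that the level of a gene with a low share is uncertain. Over the 11 tested genes with a share over 80% the median log2 fold change was 0.03.

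**Figure D2:**
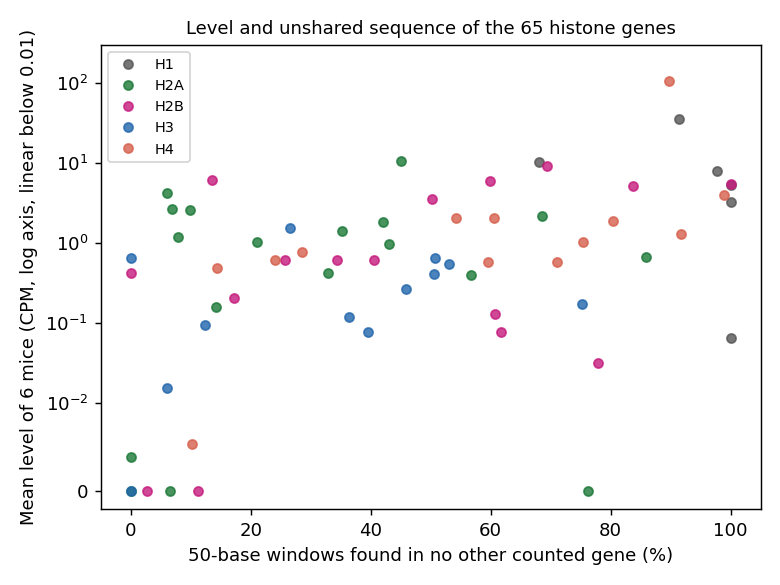
Mean level over the 6 mice in CPM (y axis, logarithmic above 0.01 and linear below) against the percentage of 50-base windows found in no other counted gene (x axis) for the 65 histone genes, coloured by class. The genes at 0 lie at low percentages apart from Hist1h2aa at 76.2%, and Hist1h4d stands highest at 104 CPM with 89.8% of its windows its own.

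H1 linker histones bind the DNA between nucleosomes. The highest of them per length was Hist1h1c (chr13:23738808-23740367, plus strand), which encodes histone H1.2, at 22.3 CPM per kilobase of its transcript model. Its level was 36.3, 33.6 and 37.2 CPM in Egr1+/+ replicates 1, 2 and 3 and 33.1, 34.1 and 34.4 CPM in Egr1-/- replicates 1, 2 and 3. The 6 mice lay close together and the genotypes overlapped. The log2 fold change was -0.08 (SE 0.10, 95% interval -0.30 to 0.15), which makes Hist1h1c the histone gene whose difference was estimated most narrowly. Hist1h1a had 9.43, 4.59 and 4.11 CPM in the Egr1+/+ mice and 5.73, 3.97 and 4.01 CPM in the Egr1-/- mice, with a log2 fold change of -0.40 (SE 0.32). Egr1+/+ replicate 1 was the highest mouse, and without it the value was 0.06. Hist1h1e gave -0.32 (SE 0.25) and Hist1h1b 0.03 (SE 0.35), each with overlapping genotypes. The models of Hist1h1e and Hist1h2be share exon sequence on the same strand, so their counts are not independent. The testis-specific Hist1h1t had between 0 and 0.194 CPM and was not tested.

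H2A pairs with H2B in the nucleosome core. Hist2h2ac (chr3:96220361-96220880, minus strand) was the highest H2A gene at 20.2 CPM per kilobase. It had 14.5, 10.3 and 8.84 CPM in Egr1+/+ replicates 1, 2 and 3 and 10.9, 8.55 and 9.99 CPM in Egr1-/- replicates 1, 2 and 3, overlapping between genotypes, with a log2 fold change of -0.19 (SE 0.20). Its close neighbour on the other strand, Hist2h2ab, had 2.50, 1.46 and 1.42 CPM and 0.780, 0.807 and 1.45 CPM in the same order. There Egr1-/- replicate 3 lay within the range of the Egr1+/+ mice, and the log2 fold change was -0.82 (SE 0.37, unadjusted p = 0.0532 and adjusted p = 0.477 by edgeR). Without Egr1+/+ replicate 1 it was -0.52. The next highest per length were Hist1h2af at 0.06 (SE 0.39), Hist1h2ai at -0.26 (SE 0.28) and Hist1h2ap at 0.30 (SE 0.43). All of these share over 90% of their windows with other counted genes. All 18 H2A genes overlapped an annotated gene on the opposite strand, as did 3 of the other 47. The libraries were made with a strand-specific kit, but whether the counting used the strand is not given in the sources used here, so reads of the 2 strands may not have been told apart in this class.

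H2B genes were the class with the lowest median and the widest spread between mice. The median log2 fold change of the 10 tested genes was -0.36, with 8 negative, and -0.01 when Egr1+/+ replicate 1 was left out. Hist1h2bg (chr13:23571396-23572013, plus strand) had 7.28, 2.30 and 4.36 CPM in Egr1+/+ replicates 1, 2 and 3 and 2.58, 1.65 and 3.07 CPM in Egr1-/- replicates 1, 2 and 3. Its genotypes overlapped, since Egr1+/+ replicate 2 was below 2 of the Egr1-/- mice. The log2 fold change was -0.93 (SE 0.40, unadjusted p = 0.0435 and adjusted p = 0.45 by edgeR), and -0.48 without Egr1+/+ replicate 1. Hist1h2bn had 15.4, 3.30 and 5.57 CPM against 5.73, 3.68 and 3.10 CPM, and Egr1+/+ replicate 1 stood far above the other 5 mice. Its log2 fold change of -0.95 (SE 0.50), the lowest in the family, became -0.11 without that mouse. In the same way Hist1h2bb, at 13.2, 4.49 and 5.08 CPM against 5.43, 2.55 and 4.72 CPM, went from -0.84 (SE 0.43) to -0.19.

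Hist2h2be was, with Hist1h2bf at 0.32 (SE 0.59), 1 of the 2 tested H2B genes with a positive log2 fold change. It encodes an H2B on chromosome 3 (chr3:96221119-96223738, plus strand), has a model of 2620 bases in which the stem-loop was not found, and shares none of its 50-base windows with another counted gene. Its counts were 173, 129 and 192 for Egr1+/+ replicates 1, 2 and 3 and 200, 179 and 216 for Egr1-/- replicates 1, 2 and 3. After scaling these were 5.04, 4.29 and 4.45 CPM and 6.00, 5.78 and 6.98 CPM, so that every Egr1-/- mouse was above every Egr1+/+ mouse. The log2 fold change was 0.44 (SE 0.17, 95% interval 0.07 to 0.82, unadjusted p = 0.0247 and adjusted p = 0.377 by edgeR). It lay between 0.36 and 0.50 when each mouse was left out in turn, and was 0.30 when libraries were scaled by their total counts alone. Hist1h2bc, which took more of the H2B counts than any other gene of the class, was at 9.72 ± 2.75 CPM (SD, n = 3) in Egr1+/+ and 8.33 ± 0.886 CPM (SD, n = 3) in Egr1-/- mice.

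H3 genes were low, at no more than 1.81 CPM per kilobase. The 12 genes together made 4.05, 4.39 and 3.43 CPM in Egr1+/+ replicates 1, 2 and 3 and 5.19, 5.13 and 4.69 CPM in Egr1-/- replicates 1, 2 and 3. These sums did not overlap, and are given without a test since they are a score over the class. Their separation rested on 1 low gene, Hist1h3f. It made 1.13 of the 4.69 CPM in Egr1-/- replicate 3 and 0.466 of the 4.39 CPM in Egr1+/+ replicate 2. Without it the sums of the genotypes overlap. All 5 tested H3 genes had a positive log2 fold change, with a median of 0.28 that stayed between 0.21 and 0.50 with any 1 mouse removed. Hist1h3f (chr13:23544052-23545312, plus strand) was counted 13, 14 and 22 times among Egr1+/+ replicates and 28, 18 and 35 times among Egr1-/- replicates, or 0.378, 0.466 and 0.510 CPM against 0.840, 0.581 and 1.13 CPM. Every Egr1-/- mouse was above every Egr1+/+ mouse, although the counts are few. The log2 fold change was 0.91 (SE 0.40, unadjusted p = 0.0499 and adjusted p = 0.468 by edgeR), and DESeq2 gave an unadjusted p of 0.0863. Hist1h3e, the highest H3 gene per length at 1.81 CPM per kilobase, had 1.11, 1.76 and 1.23 CPM against 1.68, 1.65 and 1.65 CPM. The Egr1-/- mice lay within the Egr1+/+ range, and the log2 fold change was 0.28 (SE 0.28). Hist1h3a gave 0.74 (SE 0.67), Hist1h3c 0.23 (SE 0.38) and Hist2h3b 0.15 (SE 0.41), and none of the windows of Hist2h3b was its own.

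H4 is the most conserved of the core histones, and most of its genes encode the same protein. Hist1h4d (chr13:23581598-23582735, plus strand) was the highest histone gene by far, at 91.2 CPM per kilobase where the next H4 gene, Hist1h4f, was at 5.17. It had 136, 78.7 and 126 CPM in Egr1+/+ replicates 1, 2 and 3 and 92.5, 91.0 and 98.5 CPM in Egr1-/- replicates 1, 2 and 3. The 3 Egr1-/- mice lay close together between the extremes of the Egr1+/+ mice. The means were 114 ± 30.7 CPM (SD, n = 3) and 94.0 ± 3.99 CPM (SD, n = 3), and the log2 fold change was -0.27 (SE 0.19, adjusted p = 0.672 by edgeR). It was -0.14 without Egr1+/+ replicate 1 and -0.48 without Egr1+/+ replicate 2, where the adjusted p by edgeR was 0.246. No exon of another gene overlapped it in the annotation. The count of each gene covers its whole model, and in Hist1h4d 770 bases of the 1138 lie past the stem-loop.

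The other H4 genes had lower levels. Without Hist1h4d the class summed to 12.7, 19.5 and 10.97 CPM in Egr1+/+ replicates 1, 2 and 3 and to 16.7, 16.1 and 15.3 CPM in Egr1-/- replicates 1, 2 and 3. Here Egr1+/+ replicate 2 was the highest mouse. With Hist1h4d included the class summed to 149.1, 98.2 and 136.6 CPM and to 109.1, 107.1 and 113.9 CPM in the same order. In that sum Egr1+/+ replicate 1 was the highest. Hist1h4f had 1.60, 2.06 and 1.48 CPM against 2.37, 2.68 and 1.94 CPM, with 1 pair of mice out of order and a log2 fold change of 0.44 (SE 0.25). Hist2h4 gave 0.26 (SE 0.21), Hist1h4h 0.35 (SE 0.33) and Hist1h4k -0.15 (SE 0.47), and the median of the 12 tested H4 genes was 0.09. That median became -0.03 without Egr1+/+ replicate 1, 0.39 without replicate 2 and -0.16 without replicate 3 of the same genotype.

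**Figure D3:**
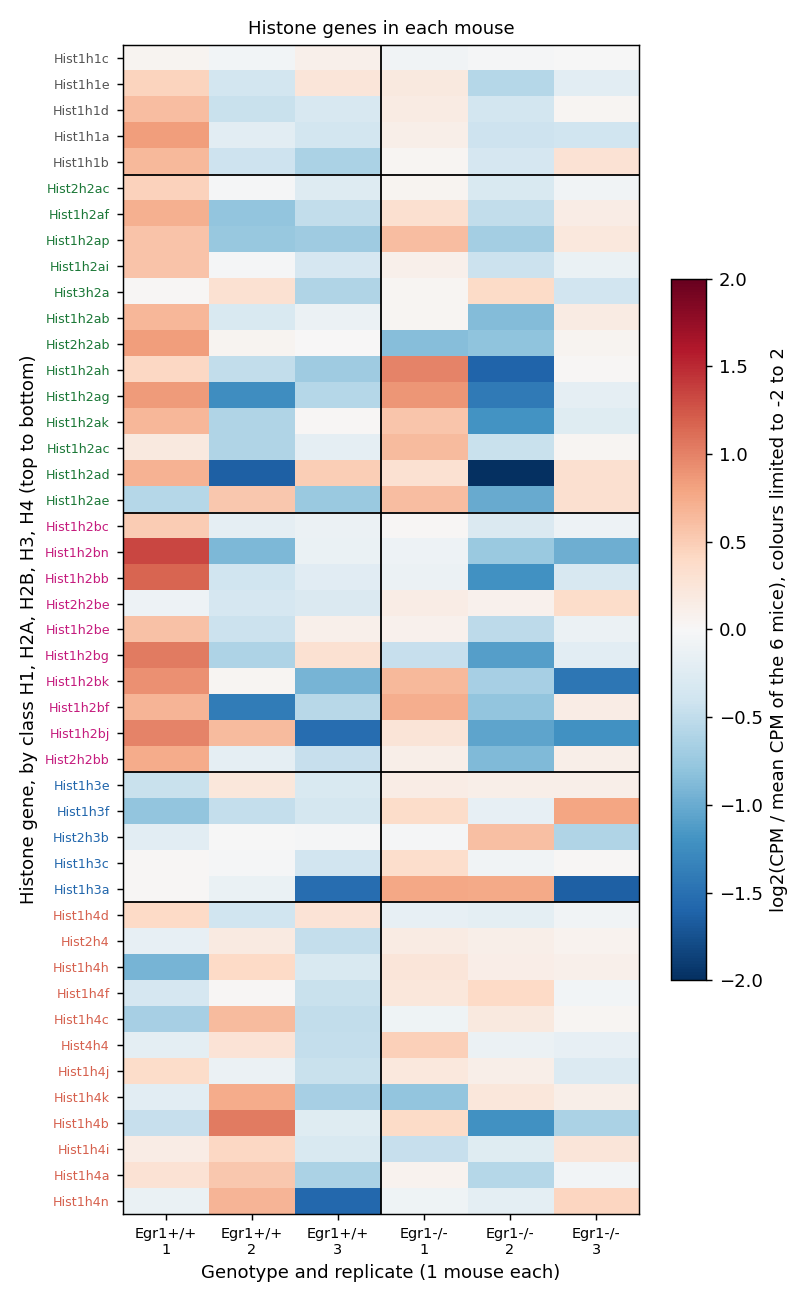
Level of each tested histone gene (y axis, by class) in each of the 6 mice (x axis), as the log2 ratio of its CPM to its mean CPM over the mice, in colour from blue (lower) to red (higher). The column of Egr1+/+ replicate 1 is red through most H1, H2A and H2B genes and not through the H3 genes, while Egr1+/+ replicate 2 is red in most H4 genes.

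The spread between mice of the same genotype was wide in this family. The median coefficient of variation within genotypes was 36.4% over the 45 tested histone genes, beside 17.0% over all tested genes, and counting alone would give the histone genes a median of 14.1%. A wide spread was not particular to the family. In lists read below the median was 37.0% for mitosis genes, 31.7% for other RNAs without a poly(A) tail, 38.5% for B cell and 47.6% for T cell markers. For S phase genes it was 16.1%. Egr1+/+ replicate 1 was the highest mouse in 21 of the 45 genes. It was so in 4 of 5 H1, 7 of 13 H2A and 8 of 10 H2B genes, but in 0 of 5 H3 and 2 of 12 H4 genes. Its level over the median of the other 5 mice had a median of 1.91 in H1, 1.73 in H2A and 2.58 in H2B genes, against 0.88 in H3 and 0.90 in H4 genes. Egr1+/+ replicate 2 was the highest mouse in 8 of the 12 H4 genes. How often each mouse was the highest over all tested genes was not measured, so these counts have no background share beside them. Without Egr1+/+ replicate 1 the median log2 fold change of the tested genes was 0.10 and 1 gene had an unadjusted p under 0.05, as had 8.73% of all genes. Without Egr1+/+ replicate 2 the median was -0.09 and 7 of 46 genes had such a p, against 11.0% of all genes. Without Egr1-/- replicate 1 it was -0.10 and 1 of 46 did, against 13.0%. By the length of the model, the variation was 59.3% in the 15 tested genes whose model ended within 100 bases of the stem-loop, 27.5% in the 17 whose model ran further and 41.4% in the 13 with no stem-loop in the model. These groups also differed in level and so in counting error, and the values were not adjusted for it. Counting alone would give 1.67% in Hist1h4d and 2.91% in Hist1h1c, whose models run further, and 27.6% in Hist1h3a, whose model does not.

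Mitosis genes, and less so S phase genes, were also high in Egr1+/+ replicate 1. The 20 genes of a mitosis list summed to 381.5, 156.6 and 158.9 CPM in Egr1+/+ replicates 1, 2 and 3 and to 209.6, 159.1 and 190.4 CPM in Egr1-/- replicates 1, 2 and 3. That mouse was thus 2.40 times the median of the other 5, with Mki67, a protein of cycling cells, at 149 CPM where the others had 47.8 to 74.7. The 30 S phase genes summed to 268.4 CPM in it and to 199.5 to 227.1 CPM in the others, a ratio of 1.24. Erythroid markers, 8 genes of red cell precursors, summed to 267.5 CPM in it and to 88.3 to 186.9 CPM in the others. By contrast 12 other RNAs without a poly(A) tail summed to 136.6 CPM in it, the lowest of the 6 mice, where the others had 199.7 to 366.4. The ratio of Egr1+/+ replicate 1 to the median of the other 5 mice was also above 1 in lists read below. It was 1.18 for replication-independent histone variants, 1.22 for endothelial, 1.38 for adipose progenitor and 3.09 for skeletal muscle markers. Macrophage markers were at 0.99, B cell markers at 0.94 and epithelial markers at 0.24. A ratio above 1 did not always make this mouse the highest. Its progenitor sum, 855.1 CPM, lay between those of the other Egr1+/+ mice, 840.1 and 901.2 CPM. The endothelial sum was highest in Egr1-/- replicate 1 (514.1 CPM) and the muscle sum in Egr1+/+ replicate 2 (3141 CPM). The part of any of these lists in the level of the histone genes was not tested.

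**Figure D4:**
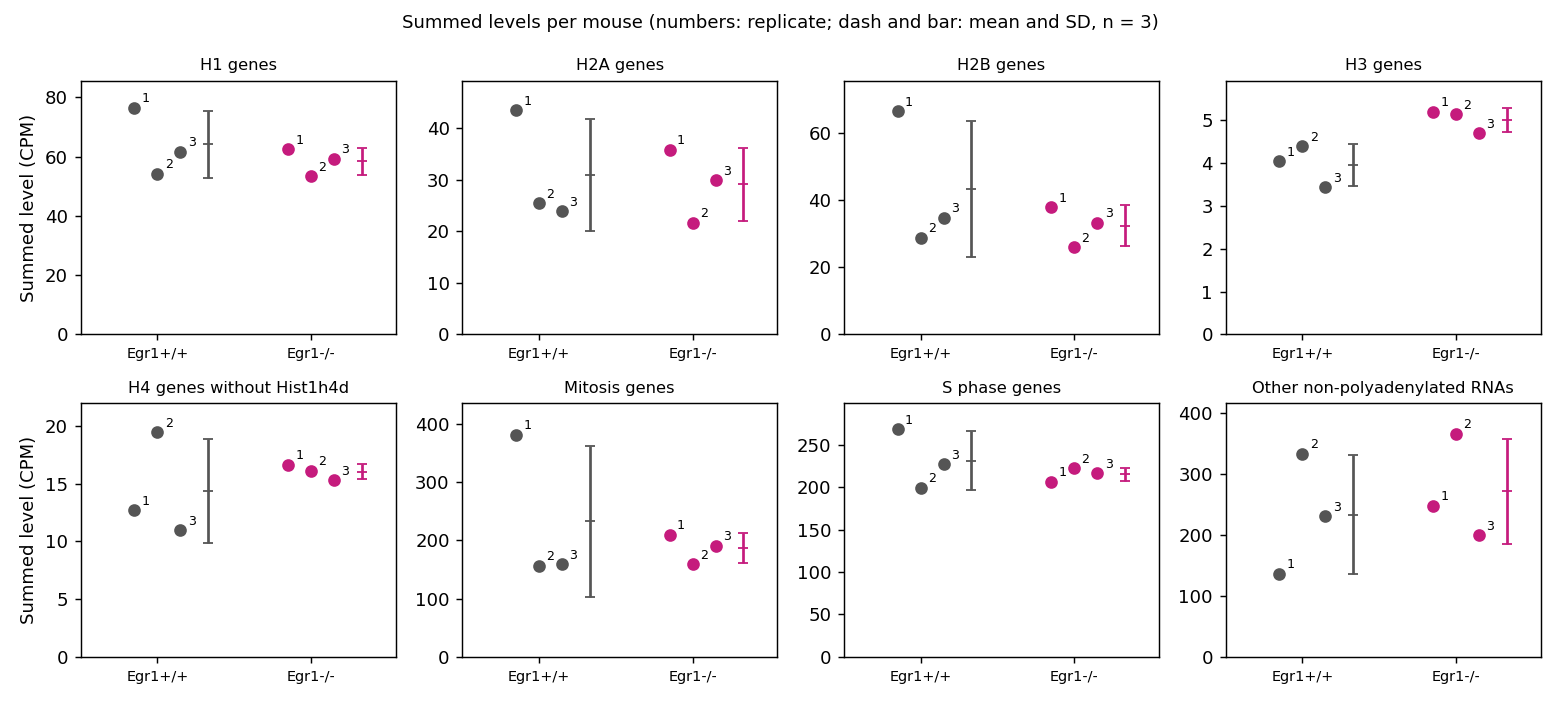
Summed level in CPM (y axis, from 0) in each Egr1+/+ and Egr1-/- mouse (x axis), with the replicate number beside each point. The panels show H1, H2A, H2B and H3 genes, H4 genes without Hist1h4d, the mitosis and S phase lists and the other RNAs without a poly(A) tail. Bars give the mean and SD of 3 mice. Egr1+/+ replicate 1 is the highest in H1, H2A and H2B genes and in the mitosis list at 381.5 CPM, and the lowest in the other RNAs without a tail at 136.6 CPM.

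Lists of other genes of the histone pathway were read in the same fit, in which 0.017% of all genes passed the adjusted and 10.7% the unadjusted threshold. The 12 replication-independent histone variants are mostly made from polyadenylated messages and, in general, not only in S phase. Of these, 10 were tested and 0 passed the adjusted or the unadjusted threshold, with a median log2 fold change of -0.11. H3f3a, an H3.3 gene, had 126, 107 and 115 CPM in Egr1+/+ and 102, 104 and 103 CPM in Egr1-/- mice, at -0.17 (SE 0.11). H2afv, an H2A.Z gene, gave -0.24 (SE 0.15) and Cenpa, the H3 variant of centromeres, 0.22 (SE 0.15). Of 20 genes for the processing and decay of histone messages 0 passed either threshold, with a median of 0.04. The lowest p belonged to Lsm1, of the cytoplasmic ring that binds messages before decay, at 0.32 (SE 0.16), Upf1, a helicase of message decay, at 0.21 (SE 0.11), and Xrn1, the 5′ to 3′ exonuclease, at 0.17 (SE 0.12). Slbp itself was at -0.01 (SE 0.12) and Npat at -0.05 (SE 0.12).

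Of 18 histone chaperones and deposition factors 0 passed the adjusted threshold and 1 the unadjusted. This was Asf1b, a chaperone of new H3 and H4, at 0.669, 0.633 and 0.858 CPM in Egr1+/+ and 1.08, 1.13 and 1.58 CPM in Egr1-/- mice. The genotypes did not overlap, and the log2 fold change was 0.80 (SE 0.33, unadjusted p = 0.0372 and adjusted p = 0.431 by edgeR). Cabin1 gave 0.16 (SE 0.12) and Nap1l1 -0.15 (SE 0.13).

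Of the 30 S phase genes 0 passed the adjusted threshold by edgeR and 1 did by DESeq2, with a median log2 fold change of -0.04 that was 0.05 without Egr1+/+ replicate 1. Mcm6, a subunit of the replicative helicase, had 19.7, 14.0 and 16.01 CPM in Egr1+/+ replicates 1, 2 and 3 and 10.4, 10.7 and 9.70 CPM in Egr1-/- replicates 1, 2 and 3. Every Egr1-/- mouse was below every Egr1+/+ mouse, with a log2 fold change of -0.69 (SE 0.15, unadjusted p = 0.00111 and adjusted p = 0.176 by edgeR). Cdc6, which loads the helicase, gave -0.65 (SE 0.29) and Pola1, of the polymerase that primes synthesis, -0.30 (SE 0.15).

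All 20 mitosis genes had a negative log2 fold change, with a median of -0.27, but 0 passed the adjusted or the unadjusted threshold by edgeR. The direction rested on Egr1+/+ replicate 1, for without it 13 of the 20 were positive and the median was 0.19. Their lowest p belonged to Nusap1 at -0.61 (SE 0.35), Cdk1 at -0.40 (SE 0.25) and Ube2c at -0.53 (SE 0.36), and Egr1+/+ replicate 1 was the highest mouse in each. Of the 12 other RNAs without a tail 7 were tested and 0 passed either threshold, with a median of 0.22. Rn7sk, the RNA that holds the elongation factor P-TEFb, gave 0.49 (SE 0.22), Rnu12 0.94 (SE 0.76) and Rmrp 0.22 (SE 0.24). Apart from the 1 S phase gene, DESeq2 called 0 genes of these lists after adjustment.

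Markers of the cell types of the pad were measured beside the histone genes, again against 5.06% of all genes higher and 5.6% lower at an unadjusted p under 0.05. Of 7 adipose progenitor markers 7 were lower at an unadjusted p under 0.05, with a median log2 fold change of -0.71 and summed levels of 840.1 to 901.2 CPM in Egr1+/+ and 452.3 to 618.1 CPM in Egr1-/- mice. Of 7 macrophage markers 4 were lower, with a median of -0.55 that was -0.26 without Egr1+/+ replicate 2, and summed levels of 243.9 to 363.8 CPM against 177.1 to 245.7 CPM. Of 6 B cell markers 2 were higher, with a median of 0.67 that was 0.33 without Egr1-/- replicate 2. They summed to 83.8 to 92.5 CPM in Egr1+/+ mice and to 75.9, 182.0 and 128.7 CPM in Egr1-/- replicates 1, 2 and 3, so Egr1-/- replicate 1 was the lowest of all. By edgeR 0 of these passed the adjusted threshold, and DESeq2 called 5, 2 and 1 of them. Among the other markers, the 7 of T cells had a median of 0.39 (-0.06 without Egr1-/- replicate 2) with 0 at an unadjusted p under 0.05, and the 6 of endothelium -0.01 with 1 lower. The 8 of adipocytes had a median of -0.28 with 1 higher and 4 lower, and the 8 erythroid markers -0.29 (0.02 without Egr1-/- replicate 2) with 1 higher and 3 lower. The 8 skeletal muscle markers summed to between 93.6 and 3141 CPM over the 6 mice without following the genotype. Epithelial markers summed to at most 13.0 CPM and marrow granulocyte markers to at most 6.50 CPM. The part of these cell types in the histone values was not tested.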

How the data were processed

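RNA from the fat pads of 6 mice was sequenced by the study as rRNA-depleted, strand-specific libraries. The labels give 50-base single-end reads and the methods of the study give a paired-end layout. The authors mapped reads with TopHat2 and Bowtie2 to GRCm38, assigned them to GENCODE M8 genes with featureCounts and deposited raw counts per gene and mouse, without normalization. Strand and multimapping settings are not given in the sources used here. Genes were named through GENCODE M21, which matched 46488 of 47069 identifiers. Transcript sequence and lengths come from M21, and 44 of the 65 histone genes had the same identifier version in it as in the files. The files held 0 table columns of no sample.

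The test was run on the counts by edgeR 4.0.16 under R 4.3.3 (TMM, filterByExpr, quasi-likelihood test without covariate, Benjamini-Hochberg over all 17667 genes tested). CPM are counts over the TMM-scaled library size, and SE is the absolute log2 fold change divided by the root of F. DESeq2 1.42.0 and limma 3.58.1 gave alternatives, as did other scalings and filters, a replicate block and leaving out each mouse. The fit was tested on simulated data. With 3 mice against 3 an exact permutation test cannot go below p = 0.1. Different mice are the replicates, and floors from counts cover counting error only. The confidence intervals of the log2 fold changes come from the quasi-likelihood fit, so they also include the variation between mice. The histone genes, the related and marker lists and the tests were chosen with earlier results of these data known. Named genes are the 4 of each class with the highest CPM per kilobase, the 5 with the lowest p in each direction, and the 3 with the lowest p of each related list. Hist1h1t, the genes with 0 counts, Slbp, Npat and Mki67 were named after their values were seen.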

Additional observations from a re-analysis of the deposited data

How the results depend on the processing

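The count of histone genes past the adjusted threshold was 0 under every alternative but the fit without a filter on low counts, which called 3 (Hist1h2bb, Hist1h2bg and Hist1h2bn, all lower in Egr1-/- mice) of 59 and had 5 at an unadjusted p under 0.05, beside 1.44% and 7.49% of all 38261 genes it tested. That fit estimated an infinite prior degrees of freedom, against 5.07 in the filtered fit. Limma-voom had 1 histone gene at an unadjusted p under 0.05, as had 10.6% of all genes. Leaving out each mouse in turn gave 0 past the adjusted threshold, 1 to 7 at an unadjusted p under 0.05 and a median log2 fold change from -0.18 to 0.10. The unadjusted count was 1 without Egr1+/+ replicate 1, 1 without Egr1-/- replicate 1 and 7 without Egr1+/+ replicate 2, where 8.73%, 13.0% and 11.0% of all genes had such a p. Total counts alone moved the median of all genes to -0.15, and Hist1h1b to -0.10 and Hist1h2af to -0.10, while the histone median was -0.22. Leaving out mice changed the sign of Hist1h1a (-0.62 to 0.057), Hist1h1b (-0.21 to 0.52), Hist1h2af (-0.20 to 0.64), Hist1h2ai (-0.45 to 0.017), Hist1h2ap (-0.011 to 0.86), Hist1h2bc (-0.34 to 0.018), Hist1h4k (-0.43 to 0.34), Hist2h2ac (-0.34 to 0.022) and Hist2h3b (-0.19 to 0.40). These sign changes are among the 24 histone genes named by level or low p, for which 16 of 355 single-gene values changed sign. Other tested histone genes also changed sign when mice were left out, such as Hist1h1d (-0.25 to 0.33) and Hist1h2ag (-0.62 to 0.87). The cause was not tested. Under a replicate block the count was 0 past the adjusted threshold and 4 unadjusted (10.8% of all genes), with a median of -0.0049. Deviations from the genotype mean had correlations of -0.089, 0.106 and -0.126 between same-numbered mice. Mice of unlike numbers had -0.171 to 0.233, and not every mouse correlated best with its own number. With 3 mice per genotype these values cannot show whether same-numbered mice were littermates. Over all genes the adjusted calls were 552 without the filter, 372 by DESeq2, 79 with total counts, 59 without Egr1-/- replicate 1, 1 by limma-voom and 0 with the block, with upper-quartile scaling, with the 1 CPM filter and without any other mouse, against 3. The 20 untested genes had too few counts, and 5 of the 6 at 0 counts also had under 20% of their windows to themselves.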
